A study of Homo sapiens with 6 samples.

Results

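Neuropeptide Y (NPY) and its receptors were examined in VCaP, an established line of prostate cancer cells with the TMPRSS2/ERG fusion and high basal levels of the transcription factor SOX9. The members were 5 genes, the ligand gene NPY and the receptor genes NPY1R, NPY2R, NPY5R and NPY6R, out of 19775 genes with a probe set of their own on the Affymetrix Human Genome U133 Plus 2.0 array. They were taken by exact gene symbol, which gave 8 probe sets of 54675, and the family was chosen from measured values: NPY6R was already known to be lower in both SOX9 siRNA groups than in control. The differences from control are therefore given for the members as a description, with no p. The calls in that contrast are stated once, as part of how the family was chosen.

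Cells were grown in DMEM with fetal bovine serum and transfected with SOX9 siRNA A (labelled SOX9i-A), SOX9 siRNA B (SOX9i-B) or a non-targeting control siRNA (NTC), and RNA was taken after 72 h. Each of the 3 groups held 2 arrays, described as biological duplicates. All 6 arrays carry the same genotype, the fusion included, come from 1 cell line, and lack an untransfected group, so every group was exposed to an siRNA. The knockdown was transient and partial.

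NPY is a short peptide that is made as a longer precursor, stored in dense core granules and released by neurons and by some endocrine and tumour cells, prostate cancers among them. It acts on receptors of the Y family, which couple to inhibitory G proteins of the Gi/o class and lower cyclic AMP. In humans NPY1R, NPY2R and NPY5R encode working receptors (Y1, Y2 and Y5), whereas NPY6R is a transcribed pseudogene with a disrupted reading frame.

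The genes lie at 4 places in the genome (RefSeq, GRCh38.p14). NPY spans chr7:24284190-24291862 and NPY6R chr5:137801193-137810751, which RefSeq annotates as a transcribed pseudogene. NPY2R spans chr4:155173723-155217076. NPY1R at chr4:163323962-163344689 and NPY5R at chr4:163343892-163352403 are neighbours whose annotated spans overlap by 798 bases.

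The 250 bases before the annotated start of NPY, on the plus strand at chr7:24283940-24284189, are shown because SOX9, a transcription factor, was the gene targeted and NPY is the ligand of the family. They were searched on both strands for the core letters of SOX factor sites, ACAAT and ACAAAG, and matches would stand in capitals. The sequence is from RefSeq, GRCh38.p14, 5′ to 3′:

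NPY: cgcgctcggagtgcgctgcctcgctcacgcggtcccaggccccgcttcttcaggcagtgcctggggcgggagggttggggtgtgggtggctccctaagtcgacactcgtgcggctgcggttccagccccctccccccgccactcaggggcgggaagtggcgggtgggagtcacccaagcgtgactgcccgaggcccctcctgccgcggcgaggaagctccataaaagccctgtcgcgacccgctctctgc

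Neither core was found in these bases, of which 71.6% are G or C. Among the 5 windows that the promoter table holds for NPY, NPY1R, NPY2R and NPY5R (2 for NPY5R), 1 window had a match, ACAAAG in NPY1R on the strand opposite to the gene, 117 bases before the start used in the table. That window, chr4:163332597-163332846, lies inside the annotated span of NPY1R, so the start is that of a shorter transcript than the span, and the NPY2R window likewise lies inside its gene's span. NPY6R has no entry in that table. Over all 35116 windows of this length in the table, 24.6% held ACAAT, 13.7% held ACAAAG and 33.7% held either. A window without these letters says nothing about the factor.

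The deposited values are MAS5 signals, 1 per probe set, on a linear scale. Median signals of the arrays ran from 21.2 to 26.2. SOX9, the target, had signals of 1469 and 1126 in the control arrays, 1108 and 673 with siRNA A and 609 and 334 with siRNA B, so all 4 siRNA arrays lay below both controls. The other SOX9 probe set read 1558 and 1270 in control, 861 and 586 with siRNA A and 570 and 293 with siRNA B, again with all 4 below both controls. The luminal prostate markers with a probe set of their own, 8 of 10, were all above the filter level described below; the KLK2 signal, a kallikrein of luminal prostate cells, ran from 15122 to 17513, and ERG, the fusion gene, from 1353 to 2726. A probe set was tested only if its mean of log2(signal + 16) reached 5.25, the median of all probe sets, which corresponds to a signal of 22.0. On that scale 12431 genes were tested, and fold changes of dim genes are understated. Of the members, NPY, NPY2R and NPY6R were tested and NPY1R and NPY5R were not. The 4 probe sets of NPY1R, NPY5R and the 2 dimmer NPY2R probe sets were below the filter level on all 6 arrays.

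**Figure D1:**
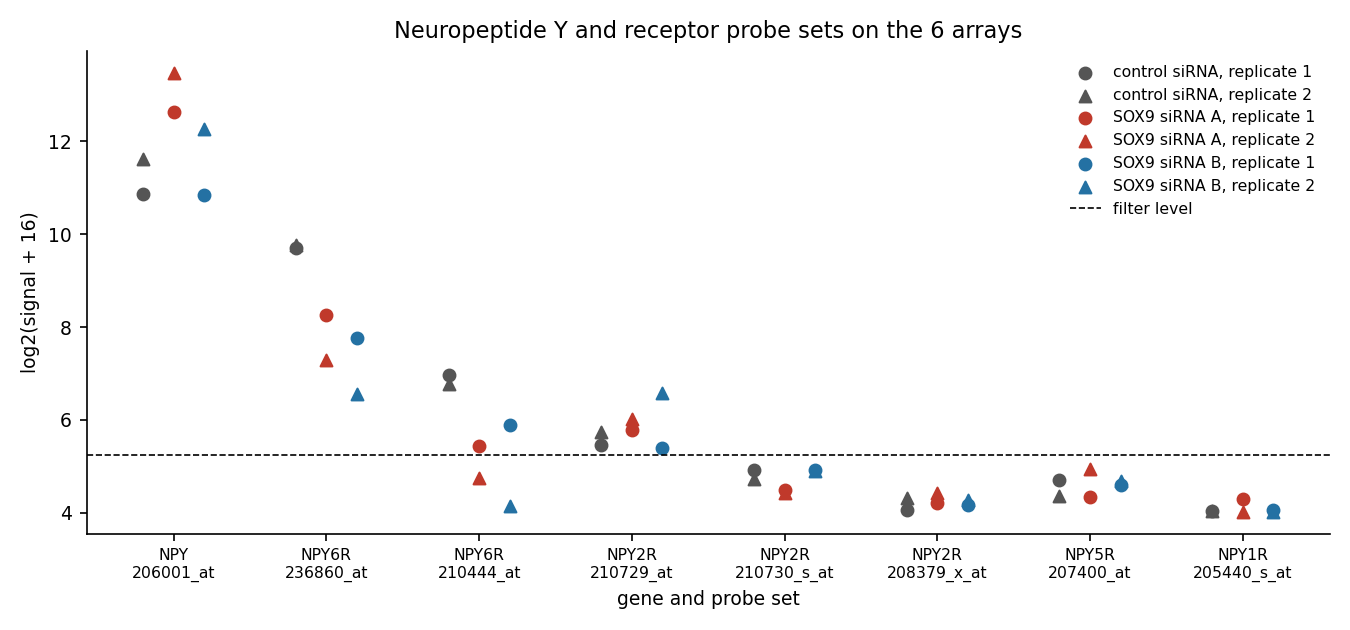
Signal of the 8 probe sets of the 5 genes as log2(signal + 16), 1 point per array, coloured by group with circles for replicate 1 and triangles for replicate 2; the dashed line is the filter level of 5.25. NPY was highest in both siRNA A arrays, both NPY6R probe sets were highest in both control arrays, and the probe sets of NPY1R and NPY5R stayed under the line on all arrays.

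NPY, the ligand, was highest in the cells given siRNA A and overlapped between siRNA B and control. Its signal was 1857 and 3132 in control replicates 1 and 2, 6292 and 11396 with siRNA A and 1817 and 4912 with siRNA B. Both siRNA A arrays stood above the other 4 arrays. Of the siRNA B arrays, replicate 1 lay just below both controls, though not after quantile normalization or median centring, and replicate 2 above both. The mean ± SD of 2 arrays was 2495 ± 901 for control, 8844 ± 3609 for siRNA A and 3365 ± 2188 for siRNA B. RNA was taken from whole cultures, so more cells with NPY and more NPY RNA per cell cannot be told apart.

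On the log2(signal + 16) scale the NPY difference from control was 1.80 with siRNA A (SE 0.38), or 3.49 times control, and 0.31 with siRNA B (SE 0.38), or 1.24 times control. Among 12431 genes the siRNA A difference was number 4 from the highest, while that of siRNA B was number 2233. The mean over both siRNAs, 1.06 (SE 0.33), therefore joins values that differ. Taken singly, replicates 1 and 2 stood 1.38 and 2.23 above the control mean with siRNA A and -0.41 and 1.02 from it with siRNA B.

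NPY was higher in replicate 2 than in replicate 1 of every group. The difference of replicate 2 minus replicate 1 on the log2 scale was 0.75 in the control group, 0.86 in the siRNA A group and 1.43 in the siRNA B group. Of all genes tested, 30.3% had replicate 2 above replicate 1 in all 3 groups. Across all genes tested, which are not independent replicates, the difference of replicate 2 minus replicate 1 correlated with r = 0.63 between the siRNA groups and with r = 0.18 between control and either siRNA. With both control arrays kept, the mean NPY difference for both siRNAs was 0.49 without replicate 2 of both siRNAs. It was 1.63 without replicate 1 of both siRNAs. These values do not pair arrays by replicate number, so they also hold the replicate difference seen in control. Single control arrays moved it as well, to 0.68 without control replicate 1 and to 1.43 without control replicate 2.

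**Figure D2:**
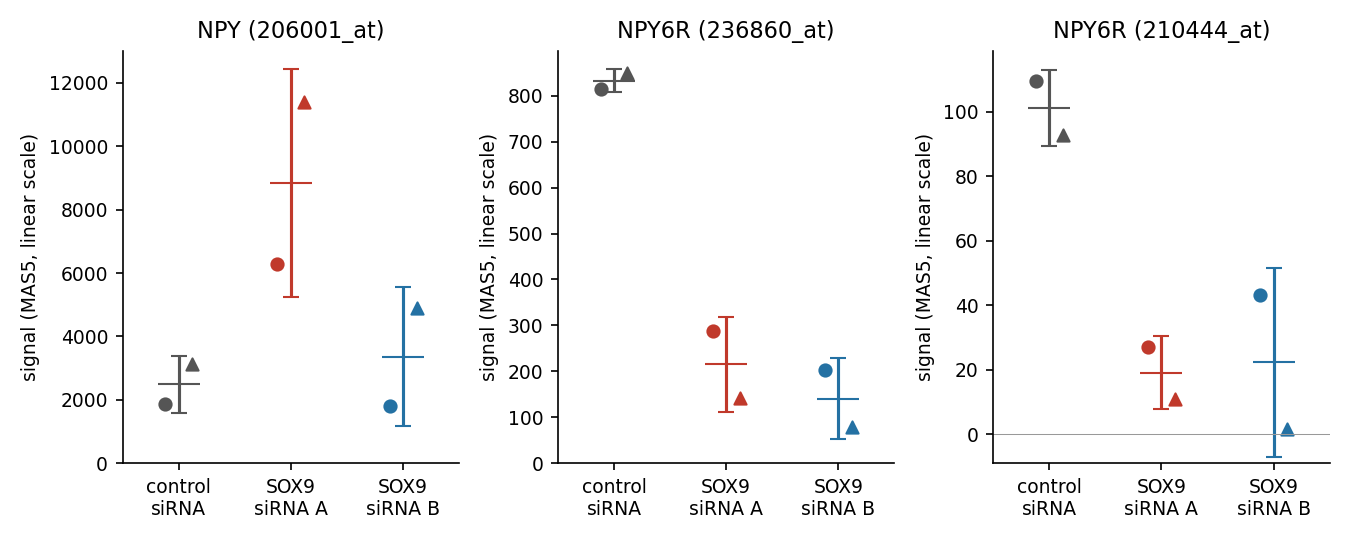
MAS5 signal on a linear scale of NPY and of both NPY6R probe sets in control siRNA, SOX9 siRNA A and SOX9 siRNA B; points are arrays (circle replicate 1, triangle replicate 2) and bars the mean ± SD of 2 arrays. NPY reached 11396 in replicate 2 of siRNA A, and in both NPY6R probe sets the 2 control arrays lay above all 4 siRNA arrays.

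The comparison between the siRNAs holds no control array and asks whether the 2 reagents against the same target gave the same NPY level. The 2 siRNA A arrays did not overlap the 2 siRNA B arrays for NPY, as for 30.9% of all genes tested, and both stood above the other 4 arrays, as for 3.81%. The difference of siRNA A minus siRNA B was 1.50 on the log2 scale, or 2.82-fold, with a 95% interval of 0.70 to 2.30 before adjustment, and it did not pass over all genes (limma adjusted p = 0.188). It passed when the replicate number was a block (limma adjusted p = 3.45e-09), in a fit whose spread came from limma's intensity trend alone. It also passed when the control arrays were left out of the fit (limma adjusted p = 2.07e-05). The SE there was 0.26, against 0.38 in the main fit, whereas the within-group SD of NPY was 0.74 on the log2 scale. Both fits, the main fit included, thus used a smaller spread than that of the NPY arrays. The 95% interval above rests on the moderated spread of the main fit and not on that of NPY alone. The NPY difference was 1.78 from the replicate 1 arrays alone and 1.21 from the replicate 2 arrays alone, higher with siRNA A in both. Of the 3 tested members 0 were called for siRNA A against siRNA B, where 0.0965% of all genes were; with the block NPY was the 1 called, against 2.9% of all genes.

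NPY6R, the receptor pseudogene, was lower with both siRNAs in both of its probe sets. The probe set with the higher mean, which represents the gene, had signals of 815 and 850.3 in control, 289 and 141 with siRNA A and 203 and 78.2 with siRNA B. All 4 siRNA arrays lay below both controls, which were close to each other, and within each siRNA replicate 2 was the lower. The means of the 2 arrays (± SD) were 833 ± 25.0 for control, 215 ± 104 for siRNA A and 141 ± 88.4 for siRNA B.

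The other NPY6R probe set was at 109.5 and 92.8 in control, 27.2 and 11.1 with siRNA A and 43.1 and 1.7 with siRNA B. All 4 siRNA arrays again lay below both controls, the order of the siRNA arrays among themselves was not the same, and its 2 replicate 2 siRNA arrays were under the filter level. Over the 6 arrays the 2 probe sets correlated at r = 0.96, and both probe sets read the same 6 RNA samples. All 4 siRNA arrays were below both controls for both probe sets also after quantile normalization and after median centring. Among all genes tested, 11.8% had all 4 siRNA arrays below both controls.

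In the first probe set the log2 difference from control was -1.96 with siRNA A (SE 0.38) and -2.56 with siRNA B (SE 0.38), or 0.258 and 0.169 times control. In the second it was -1.77 and -1.85, with siRNA arrays around or under the filter level. For both siRNAs together the difference was -2.26 (SE 0.33), number 3 from the lowest of 12431 genes. It was -1.71 without replicate 2 of both siRNAs and -2.80 without replicate 1 of both. NPY6R was the 1 member of the 3 tested that was called for both siRNAs against control, a contrast in which 0.0402% of all genes were called. With the replicate block NPY6R and NPY were called, against 3.54% of all genes. This contrast chose the family, so nothing is read from these counts.

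The siRNAs did not differ detectably in NPY6R. The difference of siRNA A minus siRNA B was 0.61 on the log2 scale, with a 95% interval of -0.21 to 1.42, and it did not pass (limma adjusted p = 0.795; 0.295 with the replicate block). Each of the 4 siRNA arrays moved it by over 1.5 times: it was -0.0027 without replicate 2 of siRNA B, 1.22 without replicate 1 of siRNA B, 0.13 without replicate 1 of siRNA A and 1.08 without replicate 2 of siRNA A.

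**Figure D3:**
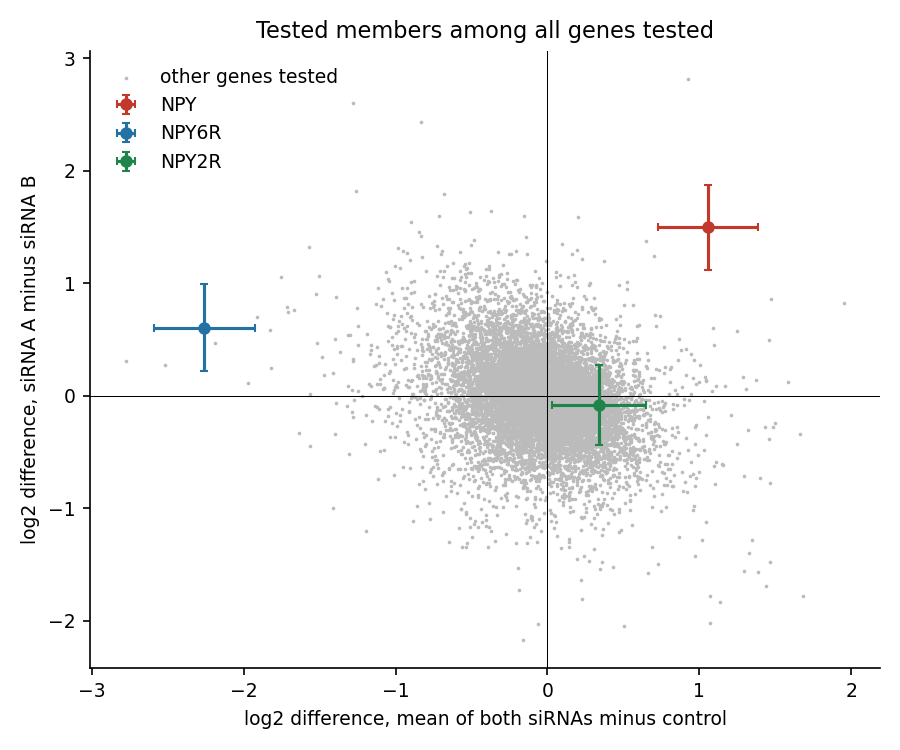
Each grey point is 1 of the genes tested, with the log2 difference of both siRNAs minus control on the x axis and of siRNA A minus siRNA B on the y axis; NPY, NPY6R and NPY2R are marked with bars of 1 SE. NPY6R lies far to the left at -2.26, with 0.61 on the y axis, NPY lies to the upper right at 1.06 and 1.50, and NPY2R lies within the main cloud.

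NPY2R, the receptor found largely on nerve endings that release NPY, was dim. The probe set that represents it read 28.2 and 37.5 in control, 38.8 and 49.4 with siRNA A and 26.0 and 79.6 with siRNA B. The groups overlapped, and the single high value was replicate 2 of siRNA B, the array with the highest median signal, 26.2. That array stayed the highest for this probe set after quantile normalization and after median centring. The log2 difference for both siRNAs was 0.34 (SE 0.31), and it was -0.02 without replicate 2 of both siRNAs and 0.70 without replicate 1 of both. The difference of siRNA A minus siRNA B was -0.08, with a 95% interval of -0.84 to 0.68, and did not pass (limma adjusted p = 0.983).

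The other 2 NPY2R probe sets were under the filter level on all 6 arrays. One ran from 5.5 to 14.5 and the other, of a type that may hybridise to related sequences, from 0.8 to 5.6. In the first of these the siRNA A arrays, at 6.6 and 5.5, lay below both siRNA B arrays, at 14.2 and 13.7, and below both control arrays, at 14.5 and 10.6. Among all genes tested, the arrays of the 2 siRNAs did not overlap for 30.9%.

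NPY1R and NPY5R, which encode the Y1 and Y5 receptors and share a locus, were read at or near the bottom of the scale. The NPY1R probe set was at 0.5 in both control arrays and between 0.3 and 3.7 over all 6. NPY5R was at 10.2 and 4.7 in control, 4.2 and 14.7 with siRNA A and 8.4 and 9.9 with siRNA B, with overlapping groups. A low signal of 1 probe set does not show that the transcript is absent. The log2 differences from control, 0.06 for NPY1R and 0.10 for NPY5R for both siRNAs, are between values under the filter level and were not tested.

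The order of the groups was thus not the same for NPY and NPY6R. NPY was highest with siRNA A, and siRNA B and control overlapped. NPY6R was highest in control, and siRNA A and siRNA B overlapped.

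The genes whose levels followed those of NPY most closely over the 6 arrays were EGR3, an early growth response transcription factor, TMEM87A, GCHFR, the regulator of GTP cyclohydrolase, EAF1 and CDC42SE2. Their Pearson r with NPY ran from 0.98 to 0.997 and Spearman rho from 0.89 to 1.0. EGR3 read 21.9 and 28.8 in control, 45.3 and 67.2 with siRNA A and 19.3 and 40.2 with siRNA B, the same order of arrays as NPY at a level near the filter. The differences of siRNA A minus siRNA B were smaller than that of NPY, from 0.41 for GCHFR to 0.68 for EGR3 on the log2 scale. Of 12430 other genes, 41 had r above 0.95 with NPY.

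For NPY6R the closest were POU2AF2, a coactivator of POU transcription factors, FZD7, a Frizzled receptor for WNT ligands, TESC, a calcium-binding protein, IL17RB, a receptor for interleukin 17 family cytokines, and PRKCZ, a protein kinase C. Pearson r ran from 0.99 to 0.996 and Spearman rho from 0.94 to 1.0. FZD7 read 162 and 202 in control, 74.8 and 34.7 with siRNA A and 41.5 and 19.6 with siRNA B, the order of arrays seen for NPY6R. POU2AF2 differed from control by -1.14, FZD7 by -1.83 and TESC by -1.71 on the log2 scale for both siRNAs, and IL17RB and PRKCZ by -0.59 and -0.32. There were 109 genes with r above 0.95 with NPY6R. For NPY2R there were 487, led by KRR1, IP6K1, LRRC41, USP14 and KEAP1, all highest in replicate 2 of siRNA B. All points share the same 6 arrays, and many genes reach a high r with so few.

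**Figure D4:**
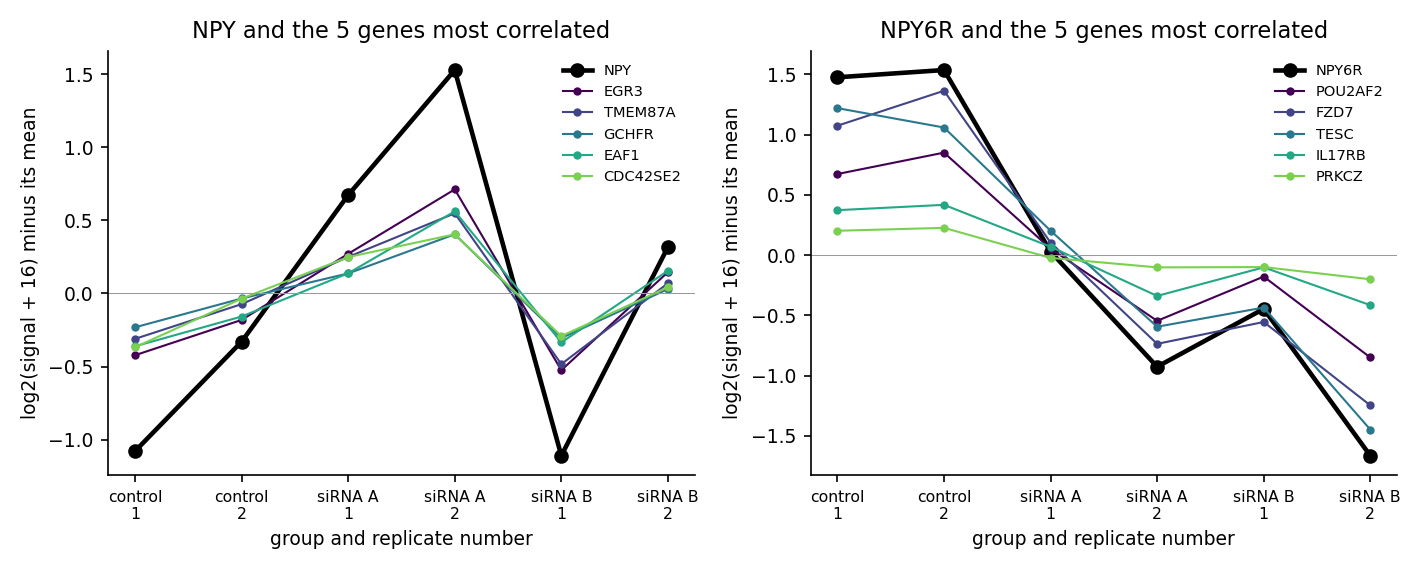
Log2(signal + 16) minus its mean over the 6 arrays for NPY (left) and NPY6R (right) in black, with the 5 genes of the highest Pearson r with each in colour; the x axis gives group and replicate number, and lines only join the points of a gene. The companions of NPY peak in replicate 2 of siRNA A with a smaller range than NPY, and those of NPY6R are highest in both control arrays and lowest in replicate 2 of siRNA B.

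Around the 5 loci the RefSeq table lists 16 other genes as the first 2 on either side, most of them noncoding RNAs and pseudogenes, and 2 of these had a probe set of their own. HNRNPA0, an RNA-binding protein gene 46.8 kb before NPY6R, read 4455 and 5305 in control, 4219 and 3612 with siRNA A and 3389 and 4081 with siRNA B. All 4 siRNA arrays lay below both controls, as for 11.8% of all genes tested, and the log2 difference of -0.35 did not pass (limma adjusted p = 0.684). TKTL2, 119 kb after NPY5R, ran from 4.9 to 15.7. The nearest genes with a probe set were looked up after the first search had given so few. MYOT, which encodes a muscle protein, lies 57.1 kb after NPY6R and read 15.3 and 14.6 in control and 0.4 to 7.5 with the siRNAs, all under the filter level. PALS2, 282 kb after NPY, differed from control by 0.35 (limma adjusted p = 0.794), and STK31, 452 kb before it, stayed under 10.

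The rest of the family was dim. PYY, which encodes the gut hormone peptide YY, ran from 2.0 to 7.8, and the pseudogenes PYY2 and PPY2P from 1.3 to 15.6 and from 0.9 to 2.4. The probe set shared by NPY4R and NPY4R2, copies of the Y4 receptor gene that this probe set does not separate, read 8.4 and 6.7 in control, 21.4 and 13.3 with siRNA A and 10.1 and 6.3 with siRNA B. PPY, NPY4R and NPY4R2 had no probe set of their own in the annotation and were otherwise not analysed here. All of these were under the filter level on every array.

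Genes that make, release, cleave and answer to peptides of this kind were set beside the members in 7 lists with 94 tested genes in all. In limma 0 of the 94 were called for both siRNAs against control, where 0.0402% of all genes were called. An unadjusted limma p below 0.05 was reached by 13 of the 94 and by 965 of all 12431 genes tested. With the replicate block 2 were called, 1 higher and 1 lower, or 2.13% against 3.54% of all genes. The 1 called higher, GCG, was under the filter level in both control arrays. The median log2 difference was -0.06 over the 94 and -0.04 over all genes tested, with 43 positive and 51 negative.

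Of the enzymes that cut and finish peptide precursors, 6 of 7 tested genes had a negative difference, with a median of -0.21, and 0 were called. PAM, which amidates the end of NPY and other peptides, read 223 and 241 in control, 193 and 59.7 with siRNA A and 256 and 129 with siRNA B, a log2 difference of -0.65 with low values in both replicate 2 siRNA arrays. CPD, a carboxypeptidase, was at -0.47, QPCT, a glutaminyl cyclase, at -0.21 and SCG5, a chaperone of a prohormone convertase, at -0.23. Of the peptidases that trim or degrade NPY and other peptides, 4 of 7 were positive, with a median of 0.11. DPP4, which removes the first residues of NPY, was at -0.23, and MME, DPP9 and ACE were at 0.47, 0.50 and -0.39. Limma adjusted p ran from 0.654 to 0.917 for these 8 genes.

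For the granule and release genes 11 of 19 were positive and the median was 0.11. SNAP25, a membrane fusion protein, read 208 and 175 in control, 191 and 84.7 with siRNA A and 109 and 58.6 with siRNA B, a log2 difference of -0.81 (limma adjusted p = 0.532; 0.0203 with the replicate block). RAB27A, a small GTPase that docks granules at the membrane, was at 0.65, PTPRN2, a granule membrane protein, at -0.74 and CADPS, which primes granules for release, at 0.61, with limma adjusted p from 0.619 to 0.637.

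Of the Gi/o signalling genes 14 of 37 were positive and the median was -0.15. PRKAR2B and PRKACB, subunits of the cyclic AMP dependent kinase, were at -0.66 and -0.50, GNG2, a G protein subunit, at -0.61 and the kinase subunit PRKACA at 0.60, with limma adjusted p from 0.462 to 0.616. PRKAR2B read 2376 and 2214 in control, 1979 and 1932 with siRNA A and 1188 and 965 with siRNA B. All 4 siRNA arrays lay below both controls, as for 11.8% of all genes tested. The arrays of siRNA A and siRNA B did not overlap, as for 30.9%. For siRNA A minus siRNA B, 0 of the 94 pathway genes were called, where 0.0965% of all genes were. With the block 4 of the 94 were called, against 2.9% of all genes. PRKAR2B at 0.86 and RGS4, a brake on G proteins, at 1.20 were higher with siRNA A. MME at -1.21 and RAB3B, a granule GTPase, at -0.93 were higher with siRNA B. For these 4 the limma adjusted p with the replicate block ran from 0.00206 to 0.0392. Of the related peptide receptors 5 of 22 were tested, with a median of 0.23, SSTR1 at 0.42, NPFFR1 at 0.38, SSTR2 at -0.39 and GRPR at 0.23.

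Among 19 tested genes of other neuropeptides and peptide hormones, 10 were positive and the median was 0.08. GCG, the glucagon precursor, read 21.2 and 3.5 in control, 34.8 and 184 with siRNA A and 18.7 and 72.7 with siRNA B. Its log2 difference of 1.47 did not pass (limma adjusted p = 0.459) and passed with the block (limma adjusted p = 7.95e-06). TAC3, which encodes neurokinin B, was at 0.83, EDN1, endothelin 1, at -0.69 and TAC1, the substance P precursor, at -0.61, with limma adjusted p from 0.491 to 0.619.

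**Figure D5:**
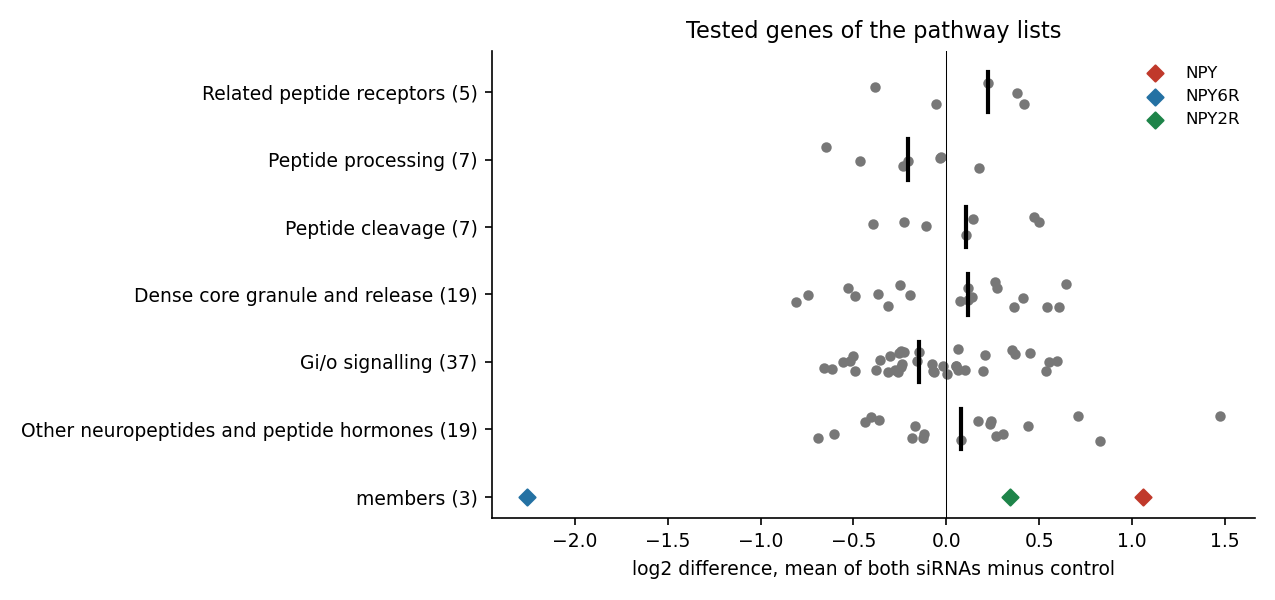
Log2 difference of both siRNAs minus control for the tested genes of 6 pathway lists (grey points, spread vertically only to be visible; number tested in brackets), with each list's median as a black bar and the 3 tested members as diamonds. List medians lie between -0.21 and 0.23, while NPY6R is at -2.26 and NPY at 1.06.

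Because NPY marks some neurons and endocrine cells, markers of these were read beside it. All 6 neuroendocrine markers with a probe set were tested, and their summed signal was 1873 and 2235 in control, 2041 and 1889 with siRNA A and 1929 and 1907 with siRNA B, with 0 called. Of the neuron and sympathetic neuron markers 2 of 6 were tested. TH and DBH, the enzymes that define catecholamine neurons, ran from 0.6 to 10.5 and from 1.3 to 4.9. The summed neuron signal was 1335 and 1492 in control, 1544.5 and 2973 with siRNA A and 1457 and 3543 with siRNA B. Most of that sum was TUBB3, a tubulin, which was highest in replicate 2 of siRNA B at 3446, whereas NPY was highest in replicate 2 of siRNA A. Whether TUBB3 and NPY move for a common reason was not tested. TUBB3 differed from control by 0.77 for both siRNAs and passed with the block alone (limma adjusted p = 0.622; 0.0197 with the replicate block). SNAP25, the other neuron marker tested, went the other way, at -0.81 (limma adjusted p = 0.532, and 0.0203 with the replicate block).

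Markers of other cell types moved between the same groups. The basal epithelial sum was 43.7 and 31.6 in control, 63.0 and 65.2 with siRNA A and 15.3 and 37.7 with siRNA B. Both siRNA A arrays stood above the other 4, as for NPY and for 3.81% of all genes tested. It held 2 of 3 listed genes: KRT14, a keratin, at 45.3 and 51.5 with siRNA A and 10.3 to 27.3 elsewhere, and KRT5, which was under the filter level. The KRT14 difference of siRNA A minus siRNA B was 1.06 (limma adjusted p = 0.256; 0.0411 with the replicate block). The sum of 5 fibroblast markers was 307 and 517 in control, 384 and 715 with siRNA A and 964 and 2266 with siRNA B, and was highest in both siRNA B arrays. LUM, a matrix protein that made up most of it, differed from control by 1.47 for both siRNAs (limma adjusted p = 0.425; 7.65e-07 with the replicate block) and by -1.48 for siRNA A minus siRNA B (limma adjusted p = 0.336; 5.79e-05 with the replicate block). COL1A1, a collagen and the other fibroblast marker tested, had a negative difference from control in the mean over both siRNAs. That mean joins siRNAs that differ and does not give the direction for each. COL1A1 was not called in that contrast, with or without the block. For siRNA A minus siRNA B it differed by -1.73 (limma adjusted p = 0.0574, and 1.66e-07 with the replicate block). Leukocyte and endothelial sums ran from 56.6 to 114 and from 33.0 to 76.6. The part of these markers in the NPY and NPY6R results was not tested.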

How the data were processed

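Biotin-labelled RNA of 6 VCaP cultures was hybridised to Human Genome U133 Plus 2.0 arrays. The deposited intensity values are MAS5 signals, per the submitters' processing notes, which name neither a version nor a scaling target. MAS5 scales each array and can give low values that are mostly noise.

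From these, log2(signal + 16) was taken, genes were named by GEO's platform annotation, 1 probe set per gene (the highest mean) was kept, and those with a mean of at least 5.25 (the median of all probe sets, a signal of 22.0) were tested: 12431 of 19775 genes. Limma 3.58.1 in R 4.3.3 fitted the 3 group means over 6 arrays with an intensity trend and Benjamini-Hochberg adjustment over all genes, called at 0.05. The script was tested on simulated data. Only 2 arrays per group limit the precision. In the main fit p-values measure the spread between these arrays, moderated by limma's intensity trend. With the replicate block they rest on that trend alone and not on the spread of the gene itself.

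Replicate numbers were taken to pair arrays, since deviations of same-numbered arrays correlated at 0.18 (control with siRNA A), 0.18 (control with siRNA B) and 0.63 (siRNA A with siRNA B). The labels do not say what the numbers mark. Values with that block are given for the genes named where they change a call.

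Members and lists were chosen with earlier results of these data known. Named genes were every member probe set, SOX9, up to 4 tested genes per pathway list with the smallest unadjusted p, the 5 genes most correlated with each tested member, and the first 2 genes on either side of each member. The more distant neighbours (MYOT, PALS2, STK31), the markers KRT14, TUBB3, LUM and COL1A1 and the pathway genes RGS4 and RAB3B were chosen after their values were seen. Alternatives were the offset, scaling, filter, probe set choice, block and arrays left out.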

Additional observations from a re-analysis of the deposited data

Results flagged for a closer look

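An NPY2R probe set that does not represent the gene in the tests differed by -0.44 on the log2 scale between siRNA A and siRNA B. It was singled out because both siRNA A arrays lay below the control mean and both siRNA B arrays above it. The difference was not tested, and all 6 signals, from 5.5 to 14.5, were under the filter level of 22.0. Arrays of the 2 siRNAs that do not overlap were common, at 30.9% of all genes tested.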

How the results depend on the processing

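In the mean over both siRNAs, NPY6R stayed lower and NPY higher than control under all 15 alternatives run, none of which took a single siRNA against control, from -2.80 to -1.71 and from 0.49 to 1.63 on the log2 scale. The NPY difference of siRNA A minus siRNA B was positive under all 16, passed in 6 (limma adjusted p from 1.94e-10 to 0.840) and ran from 0.78 to 2.21 with 1 array left out. It was 1.50 and passed with the replicate block and with the siRNA arrays alone, 1.78 without replicate 2 of both siRNAs and 1.21 without replicate 1 of both. For NPY6R that difference ran from -0.0027 (without siRNA B replicate 2, limma adjusted p = 0.999) to 1.22, with 0 called. For NPY2R it ran from -0.68 to 0.51 with 1 array left out and was positive without siRNA A replicate 1 (0.05), without siRNA B replicate 2 and without replicate 2 of both siRNAs (0.38). The 5 genes called for both siRNAs became 9 with an offset of 64, 1 with every probe set, 0 with quantile normalization (1117 at an unadjusted p below 0.05), 0 with median centring (1004), 0 with no filter (1225) and 440 with the replicate block. With 1 array left out they ran from 0 to 62, and they were 86 without replicate 2 and 2662 without replicate 1 of both siRNAs. Pathway genes called, 0 at first, were 2 with the block, 0 to 1 with 1 array left out and 32 without replicate 1 of both siRNAs. The fits without a replicate of both siRNAs kept both control arrays, so siRNA arrays of 1 replicate number were set against controls of both. They were chosen after seeing the data and assume that a lone siRNA array varies like the controls. With the block the spread comes from limma's trend alone. With the siRNA arrays alone the SE of the NPY difference was 0.26, against 0.38 in the main fit. Signals under 22.0 limit what can be said of NPY1R, NPY5R and NPY2R.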
